A study of Prunus avium with 18 samples.

Results

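Flower buds of the late-flowering sweet cherry (Prunus avium) cultivar 'Fertard' were compared between midwinter and autumn. The comparison sets 3 RNA-seq libraries of January 3, 2018 against 3 libraries of October 17, 2017, 78 days earlier, and these are 6 of the 18 libraries of a series with 6 dates. The libraries were chosen by their labelled date alone, and all annotated genes were read in them. Each replicate was independent buds from another tree, the buds were untreated orchard buds, and the study places October 17 at dormancy onset and January 3 within endodormancy, the phase in which a bud does not grow even when it is warm. RNA was extracted from ground flower buds, and the study describes no separation of their tissues. Fewer cells of a type and less RNA per cell therefore cannot be told apart. Date, temperature, day length and bud stage change together between the dates, and their parts cannot be told apart.

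What reaches a bud from the twig passes by several routes, and the study describes transport along them as strongly reduced in endodormancy. Along the symplasmic route molecules move from cell to cell through plasmodesmata, channels whose necks close when callose, a beta-1,3-glucan, is laid down by callose synthases and open when glucanases remove it. Along the transcellular route water crosses membranes through aquaporins, which sit in the plasma membrane (PIP) or the vacuolar membrane (TIP). Along the apoplastic route it moves through the cell walls, which are built of cellulose, hemicelluloses and pectin. The study drew up a list of candidate genes for these routes and for vascular development, from the literature and by keyword in the annotation, and its gene names are used here.

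Total counts per library were 11687065 to 16245476 on January 3 and 10701003 to 15673333 on October 17, so depth overlapped between the dates. The spread between trees did not match. The biological coefficient of variation was 12.0% among the January 3 libraries and 5.10% among the October 17 libraries. The root mean square difference in log2 level between libraries was 0.445 to 0.468 within January 3, 0.353 to 0.386 within October 17 and 0.955 to 1.04 between the dates. Replicate 1 of January 3 lay farthest from the October libraries, and it was the highest of the 3 January libraries for 795 of the 1604 genes called higher below. It was the lowest or joint lowest of them for 1239 of the 3032 genes called lower, and for 43 of the 76 candidate genes called lower.

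Levels are given as CPM, counts scaled to an equal library size after TMM normalization. Since gene lengths were not used, a level is read across libraries within a gene and never across genes. A gene was called at an adjusted p under 0.05 in edgeR's quasi-likelihood test and an absolute log2 fold change over 1. "Rose", "fell", "higher" and "lower" below refer to these calls and say what January 3 did relative to October 17.

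Of 26248 genes tested, 1604 (6.11%) rose and 3032 (11.6%) fell by January 3, relative to October 17. The called genes lower in January held 3.61% ± 0.12 of all counts on January 3 and 11.6% ± 0.24 on October 17 (SD, n = 3 each). The called genes higher in January held 8.59% ± 0.57 on January 3 and 3.12% ± 0.05 on October 17. The calls came from these same libraries, so the direction of both differences followed from the choice of genes. With the adjusted p alone 6597 genes were higher and 6324 lower, and the median log2 fold change of all genes tested was 0.03. A fitted log2 fold change beyond 2 was reached by 568 genes called higher and 1152 called lower, beyond 3 by 301 and 454, and beyond 4 by 154 and 189. Beyond 5 the balance turned among the genes tested, with 93 higher and 82 lower. The filter for testing spans all 18 libraries and did not act evenly on the extremes. Of genes with no count on January 3 and 10 or more on October 17, 34 of 89 were tested, against 60 of 73 in the other direction. The balance beyond 5 without this filter was not tested. The 3 libraries of January 3 did not overlap the 3 of October 17 in 60.4% of all genes tested, so that lack of overlap is common here. Calls were more frequent among weakly read genes: of 4 equal groups of genes by mean CPM, the group with the lowest levels had 8.93% higher and 17.5% lower, and the group with the highest levels had 3.73% higher and 5.47% lower.

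**Figure D1:**
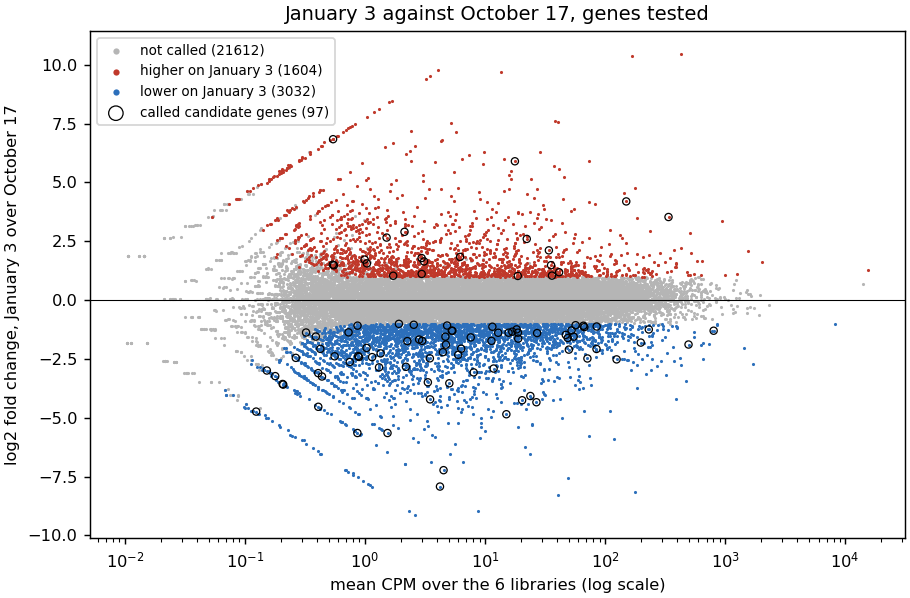
Log2 fold change of January 3 over October 17 against the mean CPM of the 6 libraries (log axis) for the genes tested that had a count in them, with genes called higher in red, called lower in blue and the called candidate genes circled. The blue cloud of 3032 genes is wider than the red cloud of 1604 genes, and the slanted lines at low CPM are genes with 0 to a few counts at 1 date.

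Of the 585 candidate genes 193 had no count in the 6 libraries and 316 were tested, of which 21 (6.65%) were higher and 76 (24.1%) lower, with a median log2 fold change of -0.24. The share called lower was thus above the 11.6% of all genes, and the share called higher was near the 6.11% of all genes. It was 22.7% for the symplasmic candidates (45 of 198 tested), 28% for the apoplastic candidates (28 of 100) and 16.7% for the vascular candidates (3 of 18).

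**Figure D2:**
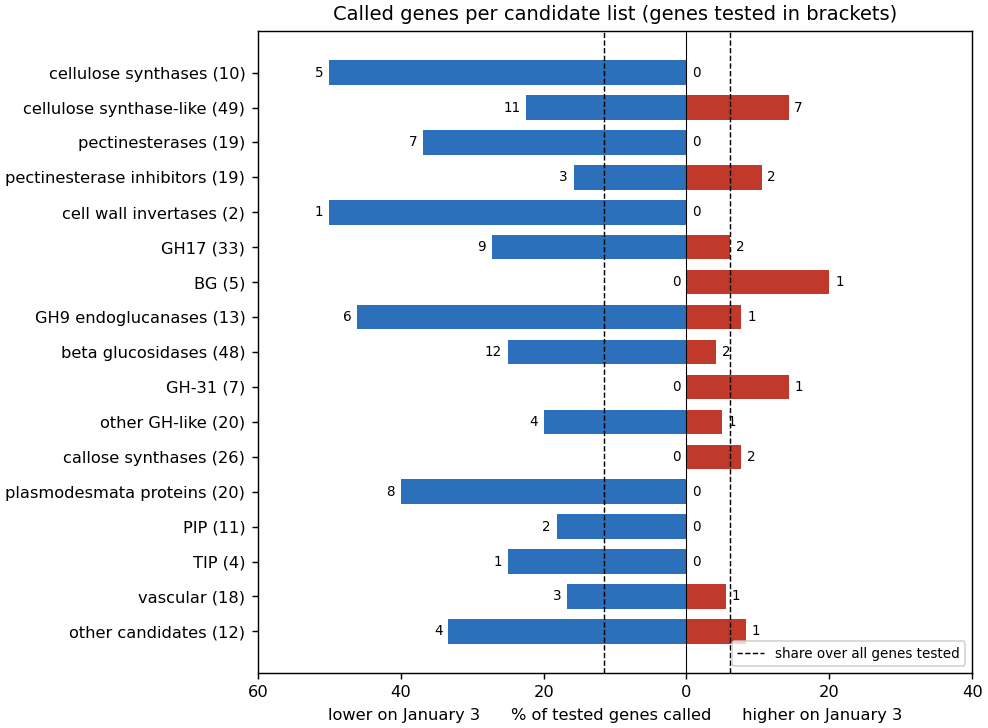
Share of tested genes called lower (blue, to the left) and higher (red, to the right) on January 3 in each candidate list, with the number called at the end of each bar, the number tested in brackets and the shares over all genes tested as dashed lines. Cellulose synthases, GH9 endoglucanases, plasmodesmata proteins and pectinesterases reach well past the dashed line on the lower side, and callose synthases have no gene called lower.

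The cellulose synthases, the plasma membrane enzymes that spin cellulose, held several of the large decreases. Of 10 tested, 5 fell, none rose, and the median log2 fold change was -1.25. CELLULOSE SYNTHASE A4_2 (PAV08g0395601, chromosome 8), whose Arabidopsis namesake serves the secondary wall, stood at 1.53, 3.09 and 1.48 CPM on January 3, against 32.3, 41.6 and 42.2 CPM on October 17. Every January library lay more than 10-fold below every October library. The log2 fold change was -4.25 ± 0.26 (SE, adjusted p = 5.5e-10).

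CELLULOSE SYNTHASE A4_3 has the neighbouring identifier (PAV08g0395591) and was named here after its values were seen. It averaged 2.68 ± 0.18 CPM on January 3 and 45.1 ± 4.02 CPM on October 17 (SD, n = 3 each), a log2 fold change of -4.07. Whether reads are shared between A4_2 and A4_3, or whether they are copies of each other, was not tested. CELLULOSE SYNTHASE 5_1 (PAV07g0358461, chromosome 7) averaged 0.341 ± 0.094 CPM on January 3 and 6.63 ± 1.73 CPM on October 17, a log2 fold change of -4.22. CELLULOSE SYNTHASE A2_1, of a type that serves growing primary walls in Arabidopsis and also named after its values were seen, fell less, to 209, 212 and 213 CPM on January 3, against 771, 787 and 783 CPM on October 17. Its libraries of each date nearly coincided. The unplaced CELLULOSE SYNTHASE A4_1 was close to absent in January, with 1 count over the 3 January 3 libraries and 74 over the 3 October 17 libraries, a 70.7-fold lower level (95% exact counting interval 12.3 to 2831).

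The 49 tested genes named cellulose synthase-like, a broader family of which many members make other wall glycans, moved in both directions. The list follows the study's gene names, and some of its members are annotated as cellulose synthases. Of the 49 tested genes 7 rose (14.3%) and 11 fell (22.4%), and the median log2 fold change was -0.17. CELLULOSE SYNTHASE-like_3_1 (PAV07g0358471), the next identifier after CELLULOSE SYNTHASE 5_1 and annotated as a catalytic part of the cellulose synthase complex, stood at 2.73, 3.33 and 1.40 CPM on January 3, against 47.0, 54.0 and 52.4 CPM on October 17 (log2 fold change -4.34 ± 0.27 SE, adjusted p = 7.06e-10). CELLULOSE SYNTHASE-like_5_2 (PAV04g0193021, chromosome 4), with the same annotation, stood at 0.954, 1.43 and 0.611 CPM on January 3, against 22.5, 33.2 and 31.7 CPM on October 17. All 3 January libraries lay far below the October libraries for both genes.

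In the other direction, CELLULOSE SYNTHASE-like E1_4 (PAV06g0265821, chromosome 6) stood at 49.5, 34.3 and 30.8 CPM on January 3, against 6.62, 6.14 and 6.22 CPM on October 17 (log2 fold change 2.60 ± 0.23 SE, adjusted p = 4.55e-08). Replicate 1 was the highest of the January libraries, and all 3 lay above October. CELLULOSE SYNTHASE-like B4_1 (PAV03g0170411, chromosome 3) had 12, 16 and 14 counts on January 3 and 0 in each October 17 library. It was at least 14.65-fold higher against a floor of 3 counts over the October group. It was read at the other dates too, with means of 1.08 CPM on January 3, 3.55 on February 12 and 1.13 on March 12. The gene with the neighbouring identifier, CELLULOSE SYNTHASE-like B4_2, averaged 42.5 ± 9.57 CPM on January 3 and 30.4 ± 1.32 CPM on October 17 and stayed under the fold threshold (log2 fold change 0.48 ± 0.14 SE, adjusted p = 0.0068).

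CELLULOSE SYNTHASE-like B6_2 averaged 9.69 ± 2.21 CPM on January 3 and 2.70 ± 0.41 CPM on October 17 (log2 fold change 1.84 ± 0.27 SE), although not all of its annotations name a synthase. CELLULOSE SYNTHASE-like G2_2 rested on 1 library, at 4.52, 1.59 and 1.66 CPM on January 3 and 0.735, 0.251 and 0.338 CPM on October 17. Its log2 fold change was 2.66 ± 0.78 (SE, adjusted p = 0.00901), and 1.95 (adjusted p = 0.08) without replicate 1 of January 3, so that the call was lost.

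Pectin is the gel that fills the wall and glues cells together. Pectinesterases strip methyl groups from it, and their inhibitor proteins hold them back. Of 19 tested pectinesterases 7 fell (36.8%) and none rose, with a fitted median of -1.55, and of -0.48 with the 5 members that had 0 counts at a date set to their floor. PECTINESTERASE-like_3 (PAV07g0352151, chromosome 7) stood at 1.27, 0.714 and 2.18 CPM on January 3, against 5.79, 4.64 and 3.38 CPM on October 17 (log2 fold change -1.73 ± 0.36 SE, adjusted p = 6.52e-04). PECTINESTERASE-like_5 averaged 21.4 ± 0.97 CPM on January 3 and 14.2 ± 1.20 CPM on October 17, a log2 fold change of 0.60 that is under the threshold. PECTINESTERASE-like_34 had 0 counts in January and 3, 1 and 6 counts in October, and its call (adjusted p = 0.0302) was lost when any library but replicate 2 of October 17 was left out, with an adjusted p of up to 0.101.

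Of 19 tested pectinesterase inhibitors 2 rose and 3 fell. PECTIN_INHIB_4 (PAV02g0131731, chromosome 2) rose, with 3.94, 3.33 and 3.93 CPM on January 3, against 1.01, 0.188 and 0.406 CPM on October 17 (log2 fold change 2.90 ± 0.47 SE, adjusted p = 5.08e-05). PECTIN_INHIB_like_17, on the same chromosome, had 2 counts over the 3 January 3 libraries and 123 over the 3 October 17 libraries, a 58.8-fold lower level (95% exact counting interval 15.9 to 491). PECTIN_INHIB_like_8 had 1 count in January and 33 in October, a 31.5-fold lower level (5.28 to 1283). Both of these are annotated as enzyme and inhibitor in 1 protein.

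Cell wall invertase, which splits sucrose outside the cell and so helps unload it, was read from 2 tested genes, of which 1 fell. This was cell wall invertase 4_1 (PAV07g0336231, chromosome 7), at 2.42, 2.54 and 2.36 CPM on January 3, against 10.0, 8.02 and 12.6 CPM on October 17 (log2 fold change -2.06 ± 0.23 SE, adjusted p = 7.42e-07).

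**Figure D3:**
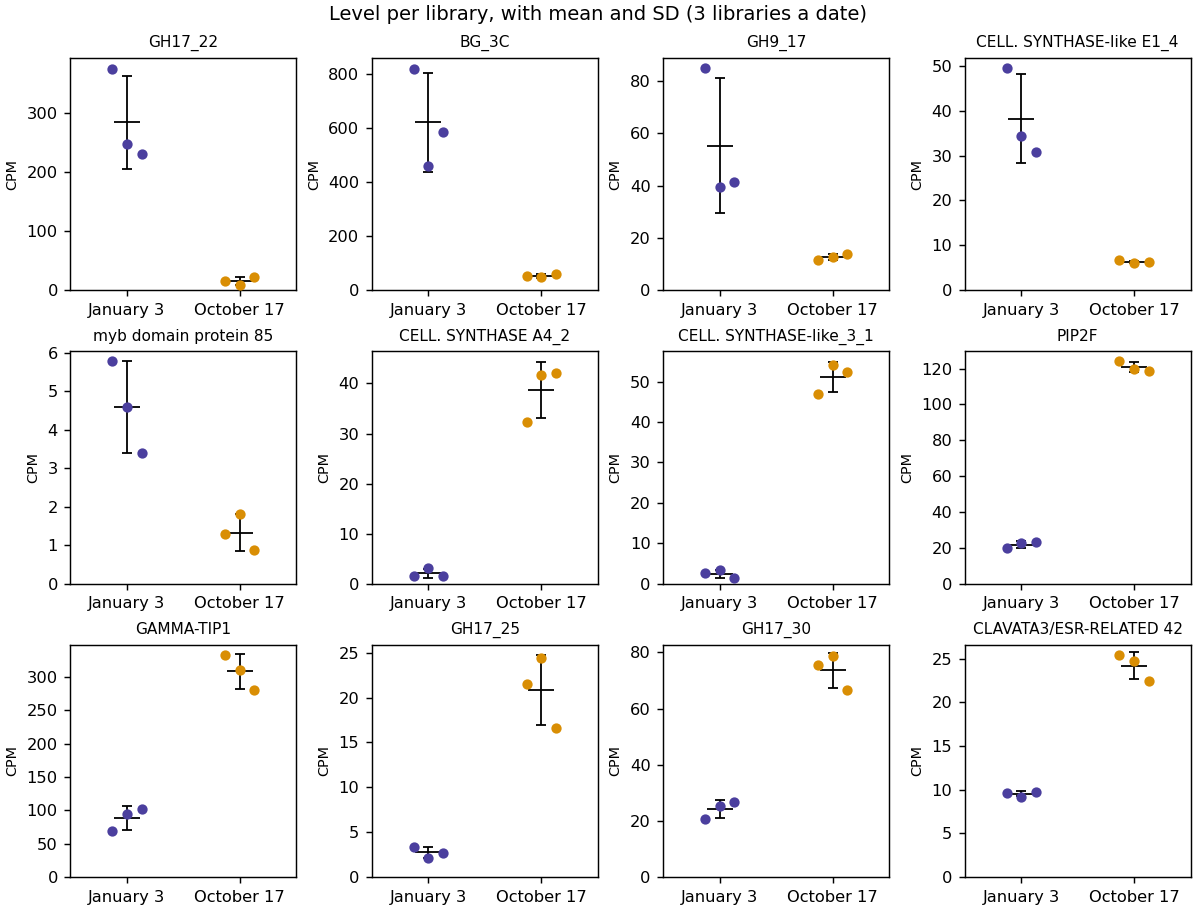
CPM of 12 candidate genes in each library of January 3 (left, violet) and October 17 (right, orange), with the mean and SD of the 3 libraries as a bar with caps. GH17_22, BG_3C, GH9_17, CELLULOSE SYNTHASE-like E1_4 and myb domain protein 85 are higher and spread more widely in January, and the other 7 genes are lower in January, with no overlap between the dates in any panel.

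Callose is broken down by beta-1,3-glucanases, which the annotation puts in the GH17 and BG lists. Of 33 tested GH17 genes 9 fell (27.3%) and 2 rose (6.06%), and the median log2 fold change was -0.61. The largest decrease was in GH17_25 (PAV04g0216711, chromosome 4), at 3.37, 2.14 and 2.71 CPM on January 3, against 21.5, 24.4 and 16.6 CPM on October 17 (log2 fold change -2.91 ± 0.24 SE, adjusted p = 2.19e-08). GH17_30 averaged 24.2 ± 3.11 CPM on January 3 and 73.5 ± 6.17 CPM on October 17, a log2 fold change of -1.61. GH17_5 and GH17_28 fell by 1.55 and 1.29 on the log2 scale, to 27.8 ± 4.93 and 30.6 ± 2.42 CPM on January 3, against 81.6 ± 2.84 and 74.6 ± 1.73 CPM on October 17.

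Members close to the threshold were GH17_19 and GH17_3, with log2 fold changes of -0.98 and -0.88 (adjusted p = 5.66e-06 and 3.35e-06). GH17_19 passed with other scalings and filters, at -1.01 with DESeq2 size factors. GH17_9 averaged 0.352 ± 0.10 CPM on January 3 and 0.887 ± 0.19 CPM on October 17 and missed the adjusted p (log2 fold change -1.29 ± 0.52 SE, adjusted p = 0.0504), which it passed with other scalings, filters and the DESeq2 test.

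The 2 GH17 genes that rose were GH17_17 and GH17_22. GH17_17, named after its values were seen, averaged 48.6 ± 2.61 CPM on January 3 and 23.6 ± 1.55 CPM on October 17, just past the fold threshold (log2 fold change 1.04 ± 0.09 SE, adjusted p = 4.13e-08). GH17_22 (PAV04g0221611, chromosome 4) stood at 375, 248 and 231 CPM on January 3, against 16.2, 8.71 and 21.97 CPM on October 17, 18.3-fold higher (log2 fold change 4.20 ± 0.39 SE, adjusted p = 8.39e-08). The lowest January library was more than 10 times the highest October library. GH17_22 is also the first of 4 neighbouring tested genes that were all called higher, with log2 fold changes of 1.62 to 4.20. BG_3C (PAV07g0328961, chromosome 7), annotated as a basic beta-1,3-glucanase, behaved in the same direction, with 821, 459.9 and 584 CPM on January 3, against 52.7, 47.1 and 61.3 CPM on October 17 (log2 fold change 3.53 ± 0.37 SE, adjusted p = 4.52e-07).

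BG_3C was the 1 called gene of 5 tested in the BG list. BG_1A averaged 1.61 ± 0.54 CPM on January 3 and 0.837 ± 0.16 CPM on October 17 and missed the fold threshold (log2 fold change 0.95 ± 0.37 SE, adjusted p = 0.0407), passing it without replicate 1 of October 17 (1.08) and without replicate 2 of January 3 (1.14). The candidate named as a pathogenesis-related thaumatin protein, from an unplaced contig and annotated in part as a beta-1,3-glucanase, stood at 41.4, 33.7 and 29.6 CPM on January 3, against 0.459, 0.376 and 0.879 CPM on October 17. At a log2 fold change of 5.90 ± 0.42 (SE, adjusted p = 3.66e-09) it had the largest fitted increase of the candidates called higher, after CELLULOSE SYNTHASE-like B4_1. Proteins of that family gather in plants under pathogen attack and cold.

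Of 26 tested callose synthases, the enzymes that lay callose down, 2 rose (7.69%) and none fell, where 6.11% of all genes tested rose and 11.6% fell. The median log2 fold change of the callose synthases was 0.18, with 20 above and 6 below 0. With the adjusted p alone 5 were higher and 3 lower. The called genes were weakly read neighbours on chromosome 3, and not all annotations of CALS_5F name a callose synthase. CALS_1B (PAV03g0164981) stood at 3.82, 2.86 and 5.58 CPM on January 3, against 1.56, 2.57 and 1.42 CPM on October 17 (log2 fold change 1.11 ± 0.36 SE, adjusted p = 0.0152). CALS_5F (PAV03g0164961) stood at 0.827, 1.98 and 1.92 CPM on January 3, against 0.276, 0.815 and 0.406 CPM on October 17 (log2 fold change 1.56 ± 0.55 SE, adjusted p = 0.0256). Neither call was stable: both were lost without replicate 1 or 3 of October 17 or without replicate 3 of January 3 (log2 fold change 0.84 to 1.02 for CALS_1B and 1.32 to 1.41 for CALS_5F), and that of CALS_5F also without replicate 2 of January 3 (1.35).

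GSL_10C averaged 8.08 ± 0.80 CPM on January 3 and 4.22 ± 1.23 CPM on October 17, a log2 fold change of 0.92 ± 0.22 (SE, adjusted p = 0.0025) that passed the threshold without replicate 2 of October 17 (1.13). The largest decrease was that of GSL-like7, annotated with glucan synthase-like 5, which in Arabidopsis lays callose at wounds and at sites of pathogen attack. It averaged 70.3 ± 7.54 CPM on January 3 and 105 ± 4.90 CPM on October 17 (log2 fold change -0.57 ± 0.14 SE, adjusted p = 0.00228). GSL-like4 and the chromosome 4 gene named GSL-like3 had log2 fold changes of -0.52 and -0.42. The other 20 callose synthases lay between -0.20 and 0.62. Many of these genes are neighbours of each other on the chromosomes, and reads of near-identical copies may not have been counted for either.

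**Figure D4:**
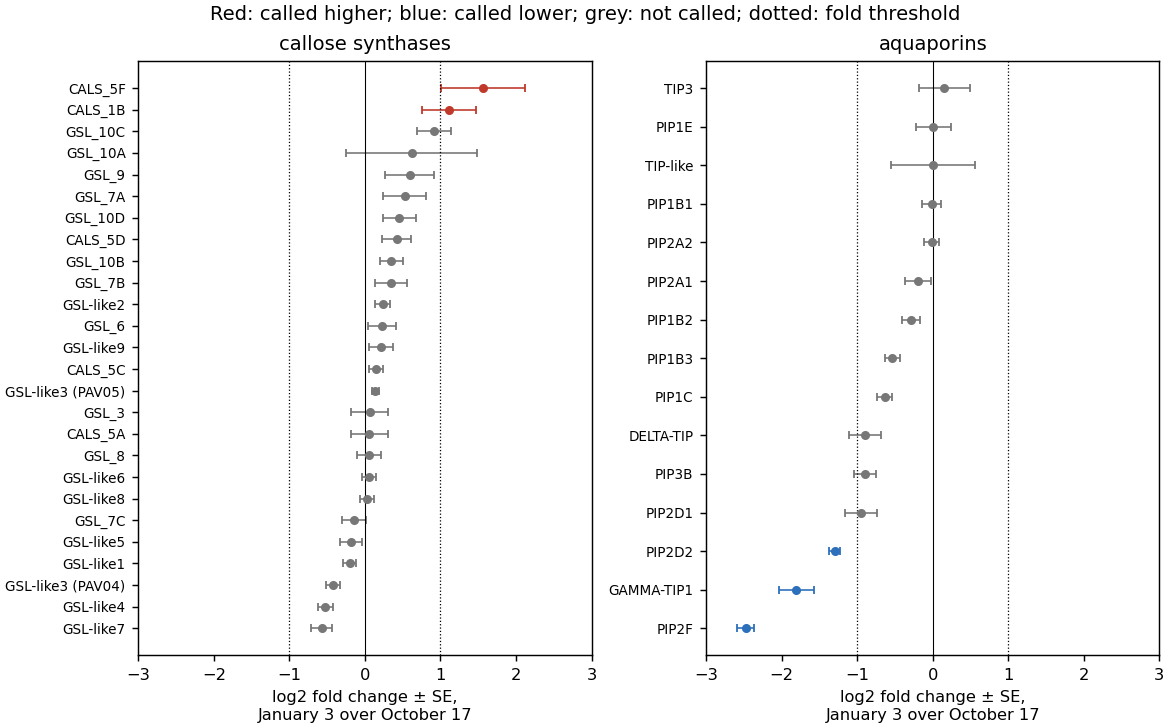
Log2 fold change of January 3 over October 17 with its SE for the 26 tested callose synthases (left) and the 15 tested aquaporins (right), called higher in red, called lower in blue and not called in grey, with the fold threshold as dotted lines. Most callose synthases lie within the dotted lines around or slightly above 0, whereas 12 aquaporins lie below 0 and PIP2F, GAMMA-TIP1 and PIP2D2 pass the threshold.

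Of 20 tested genes in the list of plasmodesmata proteins 8 fell (40%) and none rose, with a median log2 fold change of -0.59. The list was built by name and includes genes named only for a carbohydrate-binding X8 domain. Of these 6 were tested and 3 fell, against 2 of 5 tested PDCB genes and 3 of 7 tested PDLP genes. Among the callose-binding PDCB proteins, PDCB3A had 117, 145 and 150.4 CPM on January 3, against 340.2, 345 and 291 CPM on October 17 (log2 fold change -1.25 ± 0.17 SE). Of the plasmodesmata-located PDLP proteins, which span the membrane at the channel, PDLP2 averaged 36.7 ± 1.35 CPM on January 3 and 76.8 ± 3.29 CPM on October 17, and PDLP6A and PDLP6B, with neighbouring identifiers on chromosome 1, fell by 2.26 and 2.21 on the log2 scale. PDCB3A, PDLP2, PDLP6A and PDLP6B were named after their values were seen.

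PDLP8 averaged 2.98 ± 0.69 CPM on January 3 and 5.37 ± 0.92 CPM on October 17 and did not pass (log2 fold change -0.84 ± 0.24 SE, adjusted p = 0.00692), except without replicate 2 of January 3 (-1.02). PDCB5A averaged 10.2 ± 0.78 CPM on January 3 and 14.1 ± 1.45 CPM on October 17 (log2 fold change -0.47, adjusted p = 0.0889), and PDCB5B had a log2 fold change of -0.44 (adjusted p = 0.253). Carbohydrate-binding X8_8 fell on few counts, 1 over the 3 January 3 libraries and 13 over the 3 October 17 libraries, a 12.4-fold lower level (95% exact counting interval 1.87 to 528).

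GH9 endoglucanases cut beta-1,4-glucans and remodel cellulose in growing walls. Of 13 tested 6 fell (46.2%) and 1 rose, and 12 had a log2 fold change below 0, with a median of -0.97. GH9_24A (PAV08g0375621, chromosome 8) had 0.191, 0.635 and 0.873 CPM on January 3, against 5.42, 6.71 and 6.22 CPM on October 17 (log2 fold change -3.49 ± 0.32 SE, adjusted p = 8.26e-08). GH9_6, named after its values were seen, averaged 37.1 ± 7.69 CPM on January 3 and 212 ± 9.10 CPM on October 17, a log2 fold change of -2.52. The exception was GH9_17 (PAV08g0401951, chromosome 8), with 85.2, 39.4 and 41.4 CPM on January 3, against 11.5, 12.9 and 13.99 CPM on October 17 (log2 fold change 2.12 ± 0.24 SE, adjusted p = 1.32e-06). Replicate 1 was again the highest January library, and the lowest was still above all of October.

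Beta-glucosidases release sugars from small glucosides, among them the cyanogenic glucosides that Prunus stores. Of 48 tested 12 fell (25%) and 2 rose (4.17%), and the median log2 fold change was -0.13. The largest decreases of all candidates were in neighbours on chromosome 7, beta glucosidase 6_2 (PAV07g0336641) and beta glucosidase 36_17 (PAV07g0336631), of which the second is annotated as a cyanogenic beta-glucosidase. The first had 1 count over the 3 January 3 libraries, against 103, 125 and 117 counts in the October 17 libraries, a 329.8-fold lower level (95% exact counting interval 58.8 to 13060). The second had 2 counts in January, against 103, 150 and 119 counts in October, a 178-fold lower level (48.9 to 1473).

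How reads were shared between these neighbours was not tested. Of the genes that rose, beta glucosidase 27_1, from an unplaced contig, averaged 4.73 ± 1.26 CPM on January 3 and 1.49 ± 0.64 CPM on October 17 (log2 fold change 1.64 ± 0.33 SE). Its gene ontology terms name an ATP-driven membrane transporter, whereas its other annotations name a beta-glucosidase. In the lists of genes that the study names GH-like or GH-31, not all annotations of GH-like_34 and GH-like_27 name a glycosyl hydrolase. GH-like_34 rose, to 52.3 ± 9.03 CPM on January 3, against 18.7 ± 2.47 CPM on October 17 (log2 fold change 1.49 ± 0.15 SE, adjusted p = 2.38e-07). GH-31-like averaged 2.32 ± 0.37 CPM on January 3 and 1.11 ± 0.18 CPM on October 17, and its log2 fold change of 1.04 was within 0.94 to 1.00 without replicate 1 or 3 of October 17 or replicate 2 or 3 of January 3, under the threshold. GH-like_27 fell on 1 count in January and 17 in October (16.2-fold, 95% exact counting interval 2.55 to 679), a call lost without replicate 2 of October 17 (adjusted p = 0.0506).

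Aquaporins were called lower or not called. Of 11 tested PIP genes 2 fell (18.2%) and none rose, where 11.6% of all genes tested fell and 6.11% rose. A log2 fold change below 0 was found in 10 of the 11, with a median of -0.54, and in 12594 of all 26248 genes tested. PIP2F (PAV06g0276611, chromosome 6) had 19.6, 22.4 and 23.2 CPM on January 3, against 124, 119.8 and 119 CPM on October 17 (log2 fold change -2.48 ± 0.11 SE, adjusted p = 8.32e-12). PIP2D2 (PAV02g0122851, chromosome 2) had 497, 459 and 435 CPM on January 3, against 1169, 1158 and 1098 CPM on October 17 (log2 fold change -1.30 ± 0.08 SE, adjusted p = 3.76e-10). The libraries of each date were close together for both genes.

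PIP3B, PIP2D1, PIP1C and PIP1B3 had log2 fold changes of -0.90, -0.95, -0.64 and -0.54, each with an adjusted p under 0.05, but under the fold threshold. All their January libraries lay below October, as libraries of the dates did not overlap in 60.4% of all genes tested. PIP1B2 had a log2 fold change of -0.29 (adjusted p = 0.0515). PIP1B1 averaged 28.1 ± 1.74 CPM on January 3 and 28.4 ± 3.18 CPM on October 17, with overlapping libraries. PIP1E, PIP2A1 and PIP2A2, between -0.20 and 0.01, carry other annotations beside that of an aquaporin.

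Of 4 tested TIP genes, GAMMA-TIP1 (PAV07g0339741, chromosome 7) fell, to 68.2, 94.3 and 103 CPM on January 3, against 333, 311 and 280.5 CPM on October 17 (log2 fold change -1.80 ± 0.23 SE, adjusted p = 3.7e-06). DELTA-TIP averaged 59.6 ± 8.62 CPM on January 3 and 111 ± 12.1 CPM on October 17 and stayed under the fold threshold (log2 fold change -0.90 ± 0.21 SE, adjusted p = 0.00166). TIP3 and TIP-like were weakly read and overlapped between the dates, with log2 fold changes of 0.15 and 0.00.

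Of 18 tested vascular genes 3 fell and 1 rose, with a median of -0.02. CLAVATA3/ESR-RELATED 42 (PAV08g0393611, chromosome 8) had 9.67, 9.204 and 9.77 CPM on January 3, against 25.5, 24.7 and 22.4 CPM on October 17 (log2 fold change -1.34 ± 0.13 SE, adjusted p = 1e-07). WUSCHEL related homeobox 14 (PAV05g0238571, chromosome 5) had 39.7, 38.8 and 48.3 CPM on January 3, against 90.5, 91.3 and 87.5 CPM on October 17 (log2 fold change -1.09 ± 0.10 SE, adjusted p = 7.47e-08). The Arabidopsis matches given beside these names are CLAVATA3/ESR-RELATED 44 and WUSCHEL related homeobox 4, a peptide and a transcription factor that keep the cambium dividing. CLAVATA3/ESR-RELATED 44, which completes the list of called decreases, averaged 1.28 ± 0.23 CPM on January 3 and 2.55 ± 0.30 CPM on October 17, a log2 fold change of -1.01.

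The vascular gene that rose was myb domain protein 85 (PAV03g0140721, chromosome 3), a regulator of lignin and secondary walls in Arabidopsis. It had 5.79, 4.602 and 3.40 CPM on January 3, against 1.29, 1.82 and 0.879 CPM on October 17 (log2 fold change 1.79 ± 0.58 SE, adjusted p = 0.0165), and the call was lost without replicate 1 of January 3 or replicate 3 of October 17 (adjusted p = 0.0668 and 0.0682). Myb domain protein 7 overlapped between the dates (log2 fold change 0.15, adjusted p = 0.487). The TED-type cellulose synthase candidate, annotated with a protein of differentiating tracheary elements, had 1 count in January and 11 in October, and its call (adjusted p = 0.0224) was lost without replicate 1 or 2 of January 3 or replicate 1 of October 17, with an adjusted p of up to 0.0912.

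The largest changes over all genes lay outside the candidate list, in genes for which the sources used here give no name. PAV05g0232171 and PAV05g0232161, neighbours on chromosome 5, had the largest fitted increases. PAV05g0232171 had 669, 1074 and 824 CPM on January 3, against 0.827, 0.251 and 0.811 CPM on October 17, 1398-fold higher (log2 fold change 10.45 ± 0.31 SE, adjusted p = 1.17e-13). PAV05g0232161 had 266, 402 and 329 CPM on January 3, against 0.184, 0.251 and 0.270 CPM on October 17 (log2 fold change 10.38 ± 0.33 SE, adjusted p = 2.09e-13). Both were ordered alike in the January libraries, with replicate 2 highest, and whether reads are shared between them was not tested.

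Of the 5 largest fitted decreases 2 were in genes with counts in every January 3 library, PAV08g0377841 (chromosome 8) and PAV03g0141981 (chromosome 3). PAV08g0377841 had 1.02, 1.51 and 1.22 CPM on January 3, against 379, 329 and 352 CPM on October 17, 284-fold lower (log2 fold change -8.15 ± 0.28 SE, adjusted p = 6.04e-13). PAV03g0141981 had 0.191, 0.397 and 0.175 CPM on January 3, against 80.3, 90.8 and 69.7 CPM on October 17 (log2 fold change -8.26 ± 0.30 SE, adjusted p = 9.58e-13). PAV02g0101131 had 1 count over the 3 January 3 libraries and 715 over the 3 October 17 libraries, a 683-fold lower level (95% exact counting interval 122 to 27030).

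Some genes were read at only 1 of the dates. In January 89 genes had no count in any of the 3 libraries but 10 or more in October. Another 73 had 10 or more in January but none in October. Of the 89 genes 34 passed the filter for testing, and all 34 were called. Of the 73 genes 60 were tested and 55 called. The remaining genes are not part of the called sets. Of the genes silent in January, PAV05g0242091 had 57, 78 and 83 counts in October and was at least 69.5-fold lower in January, the unplaced 000051F_QUIVER_SUBSEQ_1-129044_OBJg0415581 was at least 62.8-fold lower, and PAV01g0043451 at least 30.3-fold lower. Of the genes silent in October, PAV06g0270101 had 79, 107 and 83 counts in January and was at least 93.8-fold higher, and PAV08g0369681 had 63, 127 and 59 and was at least 86.8-fold higher. SCA_181g0405931, from an unplaced scaffold, was at least 121-fold higher, but its 237, 76 and 35 counts differed widely between the January trees. These bounds set the silent date to 3 counts over its group and cover counting error only.

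Gene ontology terms were at hand for 1863 genes, all of them on unplaced contigs, of which 880 were tested, with 63 higher (7.16%) and 100 lower (11.4%). Of 27 tested genes for transmembrane transport 7 were higher and none lower, and of 67 for oxidation-reduction 9 were higher and 12 lower. The 7 include beta glucosidase 27_1, whose other annotations name a beta-glucosidase. The called transporter with the largest increase, 000112F_QUIVER_OBJg0421051, had 11.6, 5.79 and 5.06 CPM on January 3, against 0.0919, 0.125 and 0.135 CPM on October 17 (log2 fold change 5.87 ± 0.71 SE, adjusted p = 2.07e-06). A calcium-binding protein gene, 000169F_QUIVER_OBJg0424051, had 873, 157 and 161 counts in January and 1, 0 and 0 in October, with replicate 1 of January 3 far above the others.

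Among the decreases with a term, a gene for a nuclear, zinc- and DNA-binding protein, 000105F_QUIVER_SUBSEQ_1-351896_OBJg0419261, had 1.91, 3.25 and 2.71 CPM on January 3, against 154, 128 and 148 CPM on October 17 (log2 fold change -5.79 ± 0.20 SE, adjusted p = 6.04e-13). A heme-binding monooxygenase gene, 000026F_QUIVER_SUBSEQ_1-137920_OBJg0414501, averaged 1.23 ± 0.40 CPM on January 3 and 47.9 ± 3.68 CPM on October 17. A polygalacturonase gene, 000287F_QUIVER_OBJg0434341, of a kind that cuts pectin when anthers and fruits open, had no count in January and 29, 31 and 29 counts in October, at least 28.4-fold lower.

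Called genes were spread over the genome. The share called lower was 10.9% to 12.8% on the 8 chromosomes and 10.5% on unplaced contigs, and the share called higher was 5.29% to 6.44% on the chromosomes and 7.75% on unplaced contigs. In the order of their identifiers, 65 runs of 3 or more neighbouring tested genes were called higher (237 genes) and 137 runs were called lower (463 genes). The longest run of higher genes held 8 genes on chromosome 1, PAV01g0056481 to PAV01g0056551, with log2 fold changes of 1.30 to 1.94. Its first gene had 151, 76.0 and 108 CPM on January 3, against 24.4, 35.6 and 32.9 CPM on October 17. The run from PAV08g0391451 to PAV08g0391511 on chromosome 8 held 7 higher genes, of which the first 2 are weakly read and lost their calls without 1 of several libraries.

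The 2 longest runs of lower genes held 7 each. That on chromosome 8, PAV08g0383511 to PAV08g0383601, had log2 fold changes of -5.89 to -1.97. In it PAV08g0383591 had 4.01, 4.84 and 2.79 CPM on January 3, against 231, 241 and 226 CPM on October 17, while the call of its first gene, PAV08g0383511, was lost without replicate 2 of January 3 (adjusted p = 0.0561). That on chromosome 5, PAV05g0247821 to PAV05g0247891, had log2 fold changes of -3.37 to -1.19. The sources used here name none of the genes in these 4 runs, and whether their members are copies of each other was not tested.

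The levels at the other dates follow. The labels of the December libraries give the year 2012, whereas those of the other libraries give 2017 or 2018 and the study's text puts all 6 dates in 1 winter, so the December values may not belong to the same season. Without the 12 libraries of the other dates in the fit, 1626 genes were higher and 3190 lower. Of the 1604 genes called higher in January, 145 had their highest mean of the 6 dates in December, 597 on January 3, 190 on January 15, 563 on February 12 and 109 on March 12. Of the 3032 genes called lower, 1400 had their highest mean on October 17 and 1461 on March 12, and the lowest mean lay in December for 627, on January 3 for 1331, on January 15 for 387, on February 12 for 481 and on March 12 for 206. October 17 and January 3 are the dates that chose these genes, so the first cannot be a peak of the higher genes, nor the second a peak of the lower ones.

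Single genes followed different courses. PAV05g0232171 averaged 0.630 CPM on October 17, 347 in December, 856 on January 3, 500.4 on January 15, 147 on February 12 and 2.24 on March 12, a peak at midwinter. GH17_22 averaged 15.6 CPM on October 17, 32.7 in December, 285 on January 3, 679 on January 15, 1222 on February 12 and 190.0 on March 12, so that January 3 lay on its way up. PIP2F averaged 121 CPM on October 17, 32.0 in December, 21.7 on January 3, 25.1 on January 15, 66.1 on February 12 and 120.4 on March 12. CELLULOSE SYNTHASE A4_2 reached only 8.98 ± 0.57 CPM on March 12, below its October mean of 38.7 CPM, and PAV03g0141981 reached 2.78 CPM on March 12, against 80.3 CPM on October 17.

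**Figure D5:**
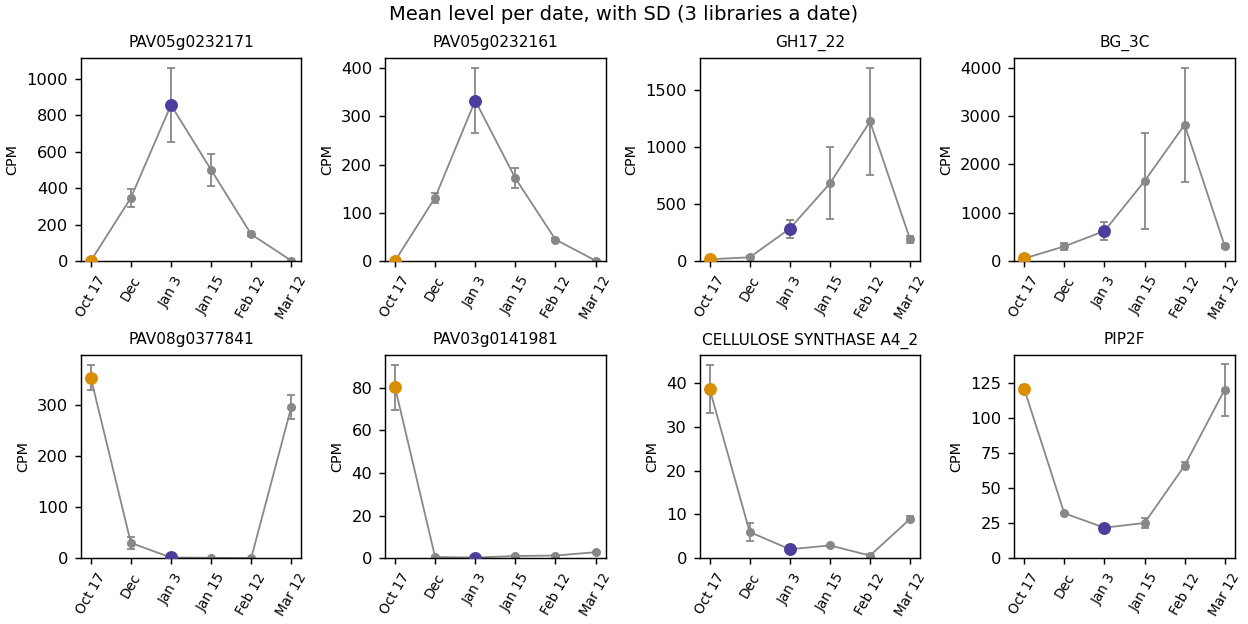
Mean CPM with SD of the 3 libraries at each of the 6 dates (evenly spaced on the axis) for 8 genes, with January 3 in violet and October 17 in orange. PAV05g0232171 and PAV05g0232161 peak on January 3, GH17_22 and BG_3C peak on February 12, and the genes of the lower row are low on January 3 and differ in how far they return by March 12.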

How the data were processed

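Flower bud RNA was measured in 6 libraries of the comparison and 12 of other dates. The deposited files hold raw read counts for 48133 genes annotated in the 'Regina' genome. Per the labels and the study's methods, the authors made stranded mRNA libraries, trimmed with Trimmomatic 0.36, mapped with STAR and obtained these counts with HTSeq, which usually discards multi-mapped reads. The test was the quasi-likelihood F test of edgeR 4.0.16 (R 4.3.3) after TMM normalization, fitted to all 18 libraries with 1 mean for each date (residual degrees of freedom: 12). It was run on genes averaging 3 or more counts and listed at 0 in no more than 75% of libraries, with Benjamini-Hochberg adjustment over all of them. Dividing the absolute log2 fold change by the square root of F gave the SE. Folds resting on 1 to 3 counts carry exact 95% counting intervals, those against 0 counts a floor of 3 counts over the group. Total counts were 10701003 to 16245476 in the 6 libraries compared, so a level near 0.1 CPM rests on about 1 read, and intervals cover counting error only. Candidates were matched by identifier (524) or by its trailing number (61). Named genes are the 10 candidates with the largest change in each direction, the extreme called member of each list, the genes the study's text names, all tested callose synthases and aquaporins, the 5 largest changes in each direction over all genes and over those with an ontology term, the genes silent at 1 date with the most counts, and the 2 longest runs in each direction. The text gives those with most data and marks or counts as list members any others, chosen after their values were seen. Members and lists were chosen with earlier results of these data known. The fit was tested on simulated data. Alternatives were DESeq2 1.42.0 as test or for size factors, other filters, scalings and thresholds, a replicate block and leaving out each library. Tables were made with Python 3.11.15. No sequences or gene names could be matched to the reference table used here.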

Additional observations from a re-analysis of the deposited data

How the results depend on the processing

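The balance of more genes lower than higher held under every scaling, filter and left-out library. Of the alternatives run, it ended only without the fold threshold (6597 higher, 6324 lower). In the main fit it was also turned among called genes with a log2 fold change beyond 5 (93 higher, 82 lower). Without the fold threshold 46 candidates were higher and 124 lower. When the fold threshold was tested itself with glmTreat 568 genes were higher and 1545 lower, among them 9 and 45 candidates. Leaving out 1 library gave 1432 to 1566 genes higher and 2841 to 2999 lower, and 17 to 22 candidates higher and 69 to 76 lower. The lowest count of higher genes came without replicate 1 of January 3 (1432 higher, 2846 lower). Allowing 1 count in place of none gave 213 genes silent in January and 135 silent in October, against 89 and 73. Of 89 called genes under the naming rule 77 could be fitted under all 16 alternatives, of which 58 kept their call in all and 71 in all but glmTreat. The other 12 were filtered out in at least 1 alternative, 9 of them by a mean count of at least 10, and 5 of the 12 lost their call in another alternative than glmTreat. None of the 89 changed sign where fitted. With the replicate number as a block 1649 genes were higher and 3029 lower. The sources do not say that equal replicate numbers are the same tree, so the numbers were not read as pairs. Deviations from the date means correlated at -0.00, -0.02 and 0.07 between same-numbered libraries of the 2 dates. Between differently numbered libraries the correlations were -0.06 to 0.06. With 3 libraries a date these values cannot decide whether trees were sampled again. Where a gene is read at under about 0.3 CPM, 3 libraries hold a handful of counts and a call may rest on 1 of them.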
